A study of Mus musculus with 16 samples.

Results

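T cell acute lymphoblastic leukaemias (T-ALL) that arose without ICN, the activated Notch used to induce the other leukaemias of the series, were compared between mice with wild-type Miz1 and mice with Miz1 deltaPOZ, a Miz1 protein that lacks its POZ domain. These are 4 of the 16 libraries, 1 library per mouse and 2 mice per genotype, chosen by the labels as all samples without ICN induction. All 4 mice were C57Bl6 and carried the p53 ko, the controls included. They are called wt 1 and wt 2 (Miz1 wt, p53 ko, no ICN) and deltaPOZ 1 and deltaPOZ 2 (Miz1 deltaPOZ, p53 ko, no ICN), numbered in accession order. The titles of both deltaPOZ mice end in Vav, a suffix that the labels do not explain. The other 12 libraries are T-ALL with ICN induction, in 6 groups of 2 mice with Miz1 wt or deltaPOZ and p53 wt or ko. Because neither wt mouse carries the suffix, it cannot be told apart from the Miz1 genotype. The sources used here do not give the organ, the age, the sex or a sequencing batch. The question was what loss of the Miz1 POZ domain alters in p53-null T-ALL when no ICN drives the leukaemia, and how far the 4 tumours differ among themselves.

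Miz1, encoded by Zbtb17, is a zinc finger transcription factor that activates genes by itself and represses genes together with MYC. Its POZ domain lets the protein form oligomers and is needed for stable binding to chromatin. In lymphoid cells Miz1 is known for its part in the survival and differentiation of early B and T cell precursors. Mice without p53 develop thymic T cell lymphomas that often carry chromosome gains and acquire their own Notch1 activation.

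Expression was measured by RNA sequencing of total RNA made into stranded mRNA libraries. The values are raw read counts per gene, and levels are given in CPM, read counts scaled to a common TMM-normalised library size. The 4 libraries held 41317981 to 68523196 gene counts (all 16: 36463524 to 68523196) and detected 20471 to 21250 genes. Alignments that were not unique took 46.51% to 56.21% of their totals, the most in deltaPOZ 1, so counts of gene families with near-identical copies are uncertain. Differences between genotypes were tested with edgeR's quasi-likelihood test over all 16 libraries in 8 groups, and p-values were adjusted by the Benjamini-Hochberg method over 17470 genes. Log2 differences are deltaPOZ minus wt, with the standard error (SE) of the fit and n = 2 mice a group. The labels name separate mice, so the p-values measure the spread between mice, pooled over all 8 groups. The common dispersion, a measure of this spread, was 0.347 over these 4 libraries and 0.208 over all 16. The p-values thus rest on a smaller spread than that of these 4 tumours alone. The groups of a gene are said not to overlap when both deltaPOZ libraries lay above, or both below, both wt libraries.

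Trp53 lay at 16.9 and 21.8 CPM in wt 1 and wt 2 and at 7.33 and 17.1 CPM in deltaPOZ 1 and deltaPOZ 2. The level of Zbtb17 (chromosome 4, 141444654 to 141467930, GRCm38 build) was 137.8, 78.6, 56.9 and 87.5 CPM in the same order, and the groups overlapped (log2 -0.58, SE 0.29, adjusted p = 0.687). The counts cover the whole gene and do not show whether the POZ exons are deleted, so they check the Miz1 labels only weakly. Notch1, the receptor from which ICN is cut, lay at 539 CPM in wt 1, 2105 CPM in wt 2, 1877 CPM in deltaPOZ 1 and 1497 CPM in deltaPOZ 2, against 277 to 961 CPM in the 12 ICN libraries. All but wt 1 thus lay above every ICN library.

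No gene passed an adjusted p of 0.05 between deltaPOZ and wt (0 of 17470, 0%). An unadjusted p under 0.05 was reached by 1341 genes (7.68%), of which 809 (4.63%) were higher and 532 (3.05%) lower with deltaPOZ. DESeq2 on the same groups called 228 genes, 182 higher and 46 lower, and limma voom called 0 with 1250 at an unadjusted p under 0.05. Groups that did not overlap were common, with 2238 genes higher (12.8%) and 2312 lower (13.2%), and the median log2 difference over all genes tested was 0.01. Both criteria together held for 670 genes higher (3.84%) and 479 lower (2.74%) with deltaPOZ. The number called by edgeR changed in some of the fits that left out 1 library. Such a fit leaves a group of 1, whose tumour is assumed to vary like the other groups. That change therefore does not show the part of a single tumour. With no filter on low counts edgeR called 746 genes.

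The gene with the lowest p was Phlpp2 (chromosome 8, 109868542 to 109944671), a phosphatase that acts on AKT. It lay at 0.901 and 0.933 CPM in the wt tumours and at 10.5 and 5.71 CPM in the deltaPOZ tumours (log2 3.14, SE 0.42, edgeR adjusted p = 0.0598). Gpr146, an orphan G protein-coupled receptor, lay at 3.85 and 2.999 CPM against 28.8 and 19.5 CPM (log2 2.82, SE 0.39, edgeR adjusted p = 0.0598). Arap2, which has a GTPase-activating domain for Arf proteins, lay at 2.28 and 1.78 CPM against 45.9 and 26.8 CPM (log2 4.17, SE 0.61, edgeR adjusted p = 0.0598). In each of these genes the wt tumours lay close together and both deltaPOZ tumours lay far above them.

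Noct, the circadian phosphatase nocturnin, came next by p among the 15 genes named as higher. It lay at 127.6 and 141 CPM with wt and at 880.2 and 525.7 CPM with deltaPOZ (log2 2.39, SE 0.36). Tle4, a Groucho corepressor, lay at 2.25 and 0.947 CPM against 14.1 and 16.6 CPM (3.27, SE 0.52). Atf6, a transcription factor of the unfolded protein response, lay at 26.4 and 19.6 CPM against 80.4 and 56.5 CPM (1.57, SE 0.27). Bcl2l2, which encodes the death inhibitor BCL-W and overlaps a predicted gene on the same strand, lay at 0.551 and 0.646 CPM against 2.79 and 3.09 CPM (2.29, SE 0.40). The wt tumours were the low pair in all of these, and none passed (adjusted p = 0.0613 for Noct, 0.0947 for Tle4, 0.104 for Atf6 and 0.11 for Bcl2l2, by edgeR). The other 8 were Cacna1a, the pore of a neuronal calcium channel, Ctnnd2 (delta-catenin), Cmya5, Flywch2, Slc12a2, the sodium, potassium and chloride cotransporter NKCC1, Lmbr1, Map7, a microtubule-associated protein, and Lrrc61, with log2 differences of 2.05 (Lrrc61) to 5.49 (Ctnnd2). Outside the naming rule, the telomerase RNA Terc, which is not protein coding, lay at 5.33 and 2.86 CPM against 64.1 and 37.6 CPM (log2 3.64, SE 0.60, edgeR adjusted p = 0.104).

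**Figure D1:**
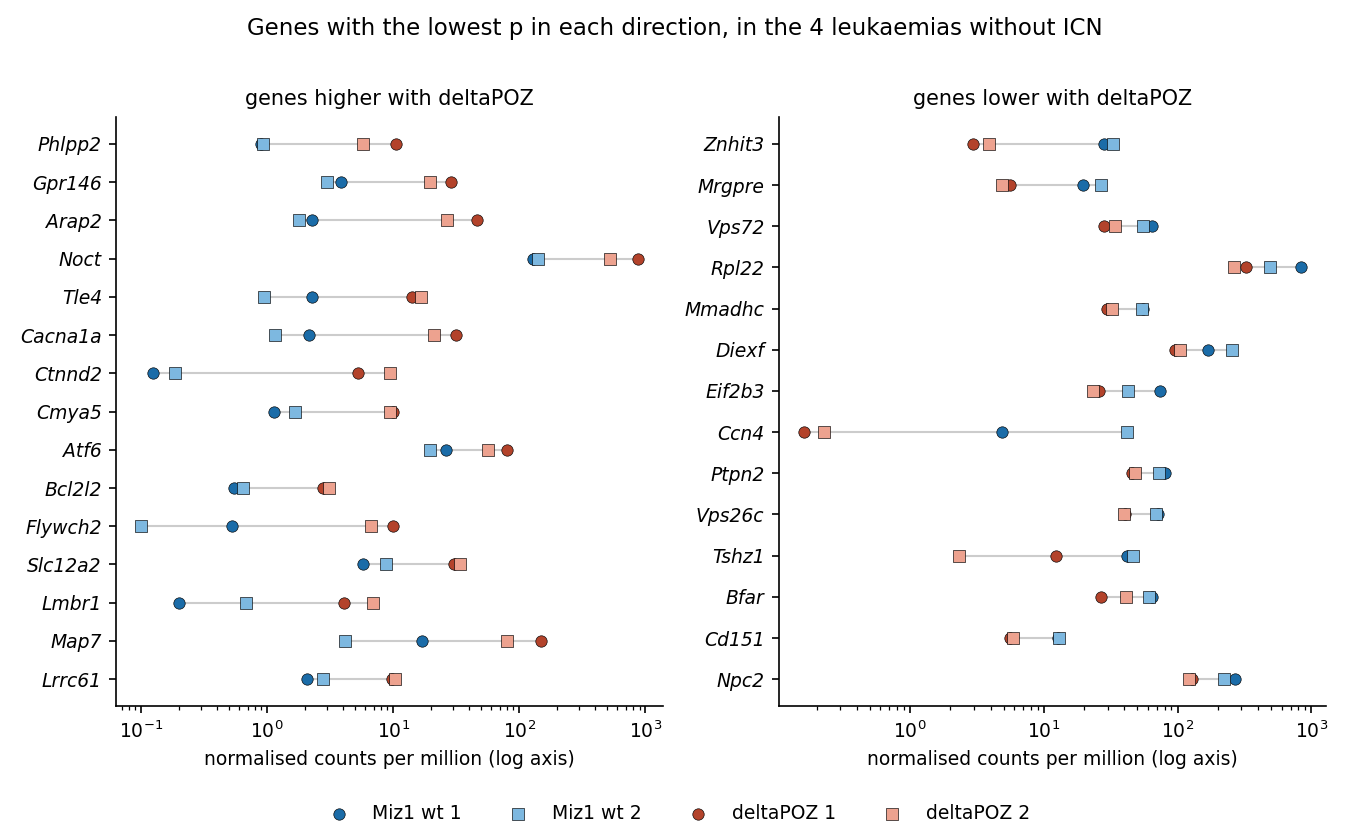
Level of the genes with the lowest p in each direction, in CPM on a log axis, with 1 point per leukaemia and a grey line over the range of the 4. The wt and deltaPOZ points do not overlap in any gene shown, since the naming rule required it, and the gap was wide for Phlpp2 (0.901 and 0.933 against 10.5 and 5.71) and Znhit3 (28.0 and 33.2 against 2.98 and 3.87).

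The levels in the ICN libraries, which entered the choice of these genes through the shared estimate of spread and the filter only, give a range to set both groups against. For 13 of the 15 genes named as higher, both wt tumours lay below all 12 ICN libraries, while the deltaPOZ pair lay within the ICN range for 5, below it for 3, above it for 4 and on both sides of a limit for 3. Phlpp2 lay at 24.6 to 65.7 CPM with ICN, above both genotypes without ICN. Arap2 (54.6 to 218 CPM with ICN) and Bcl2l2 (4.47 to 13.3 CPM) had the same order, wt below deltaPOZ below ICN. Among all 670 genes higher with deltaPOZ, both wt tumours lay below the ICN range for 283 (42.2%, against 14.5% of all genes tested) and both deltaPOZ tumours lay above it for 160 (23.9%, against 11.2%). Low wt values and high deltaPOZ values were part of the choice of these genes, so the direction of both shares is fixed by it.

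Znhit3 (chromosome 11, 84910950 to 84916366), which encodes a zinc finger protein of small nucleolar ribonucleoprotein (snoRNP) assembly, had the lowest p of the genes lower with deltaPOZ. It lay at 28.0 and 33.2 CPM in the wt tumours and at 2.98 and 3.87 CPM in the deltaPOZ tumours (log2 -3.16, SE 0.43, edgeR adjusted p = 0.0598). The wt pair lay above all 12 ICN libraries and the deltaPOZ pair below all of them (6.65 to 25.1 CPM). Its end overlaps Myo19 on the opposite strand, which lay at 19.7 and 20.8 CPM against 20.9 and 18.0 CPM. The sources used here do not name the strand setting of the counting, so reads over the overlap cannot be told apart. Across 9 alternative settings the log2 difference of Znhit3 stayed between -3.35 and -2.99, with adjusted p-values from 1.294e-10 to 1, and 4 of the 9 called it.

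Rpl22 (chromosome 4, 152325742 to 152334071), a protein of the large ribosomal subunit, lay at 836 and 495.5 CPM in the wt tumours and at 324 and 264 CPM in the deltaPOZ tumours (log2 -1.18, SE 0.26, edgeR adjusted p = 0.26). Without wt 1, its highest library, the difference was -0.74. Mrgpre, an orphan receptor, lay at 19.5 and 26.9 CPM against 5.61 and 4.84 CPM (-2.15, SE 0.37, edgeR adjusted p = 0.11). Ccn4, a matricellular protein, had the widest gap among the genes named as lower but also the widest spread, with 4.83 and 41.7 CPM in the wt tumours and 0.16 and 0.226 CPM in the deltaPOZ tumours (-6.89, SE 1.63). Outside the naming rule for its low level, Hfm1, a DNA helicase of meiosis, lay at 9.48 and 4.48 CPM against 0.0458 and 0.156 CPM (-6.04, SE 0.85, edgeR adjusted p = 0.0598).

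Most of the other genes named as lower differed by less than Rpl22. Vps72, a subunit of complexes that deposit histone H2A.Z, was lower by 0.93 on the log2 scale (64.2 and 55.1 against 28.3 and 34.3 CPM). Vps26c, of the retriever complex of endosomal sorting, lay at 71.6 and 68.9 against 40.7 and 39.9 CPM, and Npc2, a cholesterol carrier of the lysosome, at 268 and 221 against 128 and 122 CPM. Mmadhc, of cobalamin metabolism, Diexf, a nucleolar factor, Eif2b3, a subunit of the translation factor eIF2B, the phosphatase Ptpn2, the zinc finger gene Tshz1, the ubiquitin ligase Bfar and the tetraspanin Cd151 were named as lower too. Tshz1 and Eif2b3 differed by more than Rpl22, with 42.1 and 46.6 against 12.3 and 2.31 CPM for Tshz1 (-2.61, and -4.28 without deltaPOZ 1) and 73.4 and 42.4 against 25.8 and 23.2 CPM for Eif2b3 (-1.24, and -0.78 without wt 1). Adjusted p-values were 0.0598 (Znhit3) and 0.11 (Mrgpre), and 0.26 (Rpl22) or more for the other genes described here, by edgeR. DESeq2 called all 15 genes named as higher (adjusted p 1.423e-09 to 5.088e-05) and all 15 named as lower (1.294e-10 to 0.0342). Both wt tumours lay above all ICN libraries for 10 of the 15 named as lower, and both deltaPOZ tumours lay below all of them for 7. Among all 479 genes lower with deltaPOZ these shares were 26.7% and 39.0%, against 12.2% and 12.3% of all genes tested. High wt values and low deltaPOZ values were part of the choice of these genes, so the direction of both shares is fixed by it.

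The deltaPOZ difference was also measured with ICN, in p53-wt mice and in p53-ko mice (4 deltaPOZ against 2 wt mice each), and these comparisons share no library with the one without ICN. All 3 share 1 estimate of spread per gene. Of the 479 genes lower without ICN, 12 (2.51%) had groups that did not overlap, lower with deltaPOZ, in both ICN backgrounds, against 73 of all 17470 genes (0.418%). Of the 670 genes higher without ICN, 8 (1.19%) were higher in both, against 88 of all genes (0.504%). The opposite direction in both ICN backgrounds held for 1 of the 479 (0.209%) and 2 of the 670 (0.299%). In ICN p53-wt mice 54 of the 479 (11.3%) were lower without overlap, against 5.95% of all genes, and 29 (6.05%) higher, against 5.45%. In ICN p53-ko mice 24 (5.01%) were lower, near the 4.5% of all genes, and 19 (3.97%) higher, against 4.4%. Of the 670, 49 (7.31%) and 48 (7.16%) were higher in these backgrounds in turn, and 33 (4.93%) and 23 (3.43%) lower. Among the genes lower in all 3 were Znhit3, Mmadhc, Eif2b3, Tshz1, Ambra1, Gne, Cox19, the predicted gene Gm7895, Vamp4, Dclre1b and Rsrc1. The genes higher in all 3 were Rpl22l1, Mgmt, Myo15, Gm15421, Pxdc1 and 3 immunoglobulin or unnamed genes at 0 to 3.65 CPM without ICN. That genes such as Znhit3, Rpl22, Vamp4 and Ambra1 are lower with deltaPOZ was already known from these data when this list was drawn up.

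**Figure D2:**
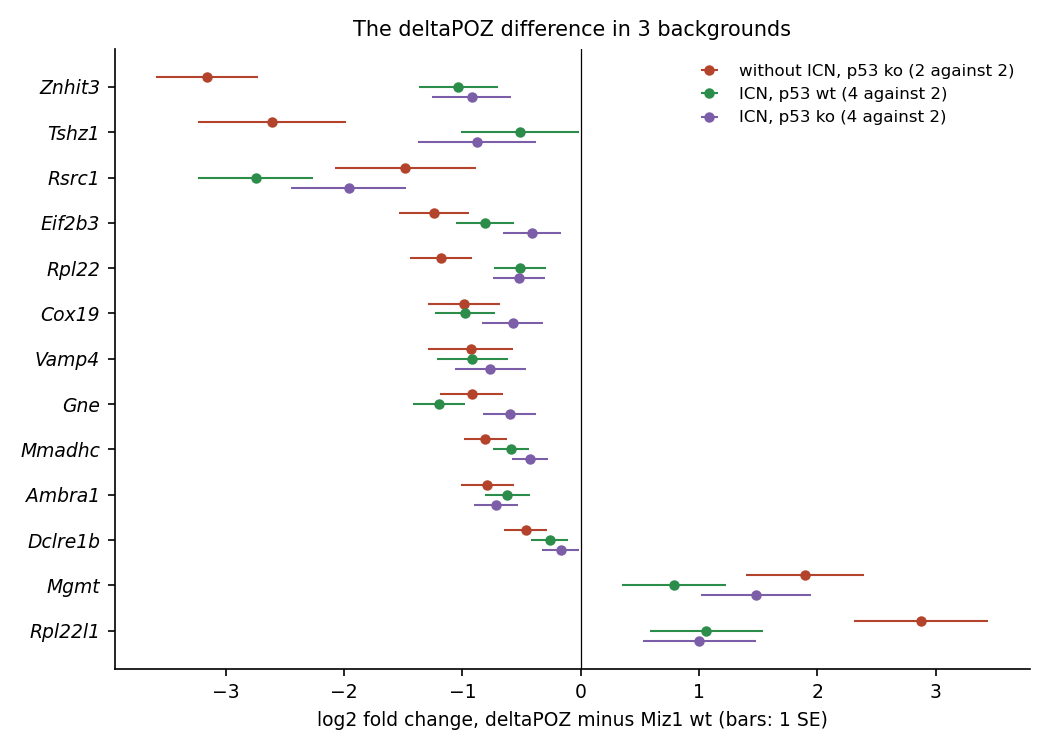
Log2 difference between deltaPOZ and Miz1 wt in the 3 backgrounds for protein-coding genes with a mean log2 CPM of at least 0 that did not overlap in the same direction in all 3, and for Rpl22, with bars of 1 SE. Znhit3 lay at -3.16 without ICN against -1.03 and -0.92 with ICN, and Rpl22l1 at 2.88 against 1.063 and 1.002, while Vamp4 and Ambra1 lay close together in all 3.

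Within this group the size of the difference varied. Znhit3 was lower by 3.16 without ICN and by 1.03 and 0.92 in the ICN p53-wt and p53-ko backgrounds, but the test of the difference between the effects without ICN and in ICN p53-ko Vav mice did not pass (log2 -2.11, SE 0.57, edgeR adjusted p = 0.702). The SNARE gene Vamp4 (chromosome 1, 162570515 to 162599084) lay at 29.2 and 19.96 CPM with wt and at 15.7 and 10.2 CPM with deltaPOZ (-0.93, SE 0.36, against -0.92 and -0.76 with ICN). Ambra1, an activator of autophagy (chromosome 2, 91730134 to 91918849), lay at 101 and 85.5 CPM against 41.9 and 66.0 CPM (-0.79, SE 0.22, against -0.62 and -0.72). Gne, the first enzyme of sialic acid synthesis (chromosome 4), lay at 85.4 and 59.6 CPM against 31.5 and 45.1 CPM (-0.92, SE 0.27). Cox19, of cytochrome oxidase assembly, lay at 24.8 and 32.8 against 13.6 and 15.4 CPM, and Dclre1b, the telomere nuclease Apollo, at 38.5 and 37.2 against 28.8 and 26.04 CPM. Without wt 1 the difference of Vamp4 was -0.62, and without deltaPOZ 1 that of Ambra1 was -0.52. No gene of this group passed over all genes with edgeR, and DESeq2 called Znhit3, Mmadhc, Eif2b3, Tshz1, Rpl22l1 and Mgmt among them.

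Promoter sequences are shown for the genes lower in all 3 backgrounds, because they are the genes whose difference recurred and because Miz1 binds near transcription starts. RefSeq promoter windows on GRCm38.p6 (250 bases before to 50 after a start) were given for 6 of the 12 (Ambra1, Cox19, Dclre1b, Gne, Rsrc1 and Vamp4). Vamp4, Gne and Rsrc1 each have a window at a second start as well, which is not printed. The 120 bases before the start are printed 5′ to 3′ on the strand of the gene, with the string GCGATCG in capitals: Vamp4 at chr1:162570395-162570514 (plus strand), Gne at chr4:44072718-44072837 (minus), Dclre1b at chr3:103809388-103809507 (minus), Ambra1 at chr2:91730018-91730137 (plus), Cox19 at chr5:139345167-139345286 (minus) and Rsrc1 at chr3:66985542-66985661 (plus).
Vamp4: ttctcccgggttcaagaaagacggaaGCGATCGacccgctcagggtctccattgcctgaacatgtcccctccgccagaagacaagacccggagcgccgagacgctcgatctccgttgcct
Gne: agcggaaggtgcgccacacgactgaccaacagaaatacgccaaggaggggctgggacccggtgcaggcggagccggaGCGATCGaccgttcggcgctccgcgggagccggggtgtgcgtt
Dclre1b: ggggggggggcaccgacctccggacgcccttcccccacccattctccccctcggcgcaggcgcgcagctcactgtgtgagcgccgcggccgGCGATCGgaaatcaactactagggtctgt
Ambra1: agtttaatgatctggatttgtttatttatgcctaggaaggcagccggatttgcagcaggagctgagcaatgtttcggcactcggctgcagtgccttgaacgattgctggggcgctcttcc
Cox19: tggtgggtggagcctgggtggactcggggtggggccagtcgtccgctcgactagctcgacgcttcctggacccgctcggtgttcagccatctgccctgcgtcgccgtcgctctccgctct
Rsrc1: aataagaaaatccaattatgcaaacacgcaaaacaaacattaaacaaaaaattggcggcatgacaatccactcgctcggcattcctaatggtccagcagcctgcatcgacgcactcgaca

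In all, 8 strings were searched on both strands over the whole windows. The first 3 were ATCGAT and ATCGGT, taken from sequences reported to bind Miz1, and CACGTG, the E-box that MYC binds. The other 5 were taken from the windows above after these had been read, overlap each other, and so describe the windows without testing anything. They were GCGATCG, its core CGATCG, the neighbouring string ATCGAC and a pair of longer strings, CGATCGAC as well as GCGATCGACC, which is GCGATCG with the bases that follow it in both Vamp4 and Gne. GCGATCG was found in the windows of Vamp4, Gne and Dclre1b, where it began 94, 43 and 29 bases before the start, and in 1.76% of the 11894 genes tested that had a window. It was found in 3.0% of the 333 such genes lower with deltaPOZ without ICN and in 2.12% of the 472 higher. The lower genes with it include Vamp4, Gne and Dclre1b, from whose windows it was taken, so that choice raises their share. Rpl22 is among them too, with its match after a second start. The second starts of Vamp4 and Gne, not printed, have no match in their windows. The 10-base string GCGATCGACC, shared by Vamp4 and Gne, occurred in the windows of 3 of 27025 genes, the third being Orc3, an origin recognition protein, which lay at 192 and 133 CPM with wt and at 126 and 132 CPM with deltaPOZ (log2 -0.33, SE 0.30, edgeR adjusted p = 0.881). ATCGAT and ATCGGT were found in none of the 6 genes and in 1.2% and 3.0% of the genes lower with deltaPOZ, against 0.992% and 3.31% of those tested. CACGTG was found in the window of Vamp4 alone among the 6, outside the bases printed, and in 13.5% of the lower genes against 11.1%. A match is a description of letters and was not tested as a binding site.

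The size of the deltaPOZ difference without ICN was tested directly against that in ICN p53-ko Vav mice, which share the p53 status and the suffix. No gene passed (0 of 17470, 0%), while 1221 genes (6.99%) had an unadjusted p under 0.05, 790 higher (4.52%) and 431 lower (2.47%). DESeq2 called 74 genes here. The lowest p-values belonged to Phlpp2 (log2 difference of the effects 4.01, SE 0.56) and Gpr146 (3.83, SE 0.54), both with an edgeR adjusted p of 0.0923. Phlpp2 was lower by 0.15 and 0.58 with deltaPOZ in the ICN p53-wt and p53-ko backgrounds, and Gpr146 by 0.07 and 0.60. They were followed by Arap2, Rap1gap2, a GTPase-activating protein for Rap, and Flywch2, each with an adjusted p of 0.36 by edgeR. In the other direction came Ppm1f, a phosphatase of calmodulin-dependent kinases, at 183 and 123 CPM with wt and 59.2 and 96.5 CPM with deltaPOZ, followed by Pdcd2, Diexf, Ccdc58 and Bfar, with adjusted p-values of 0.569 (Ppm1f) to 0.702 (Bfar). Set against the effect averaged over all 4 ICN deltaPOZ groups, 0 genes passed as well, with 1242 (7.11%) at an unadjusted p under 0.05.

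Reported Miz1 targets were lower in part. Of 20 such genes, 6 had groups that did not overlap with deltaPOZ lower and 2 with deltaPOZ higher, beside 13.2% and 12.8% of all genes, and the median log2 difference was -0.32 against 0.01 over all genes. Of the 6, 5 had an unadjusted p under 0.05 as well, beside 2.74% of all genes, namely Vamp4, Ambra1 and Rpl22 (above), Cdkn1c and Socs1. That Vamp4, Ambra1 and Rpl22 are lower with deltaPOZ was already known from these data when the list was drawn up. The share of lower members is therefore not independent of these data. Cdkn1c, the cell cycle inhibitor p57, lay at 22.2 and 23.4 CPM against 0.527 and 6.22 CPM (log2 -2.75, SE 0.90). Socs1, an inhibitor of cytokine signalling, lay at 87.6 and 48.4 CPM against 17.8 and 35.1 CPM (-1.36, SE 0.55). The higher pair were the integrins Itga6 (0.54, SE 0.31) and Itgb1 (0.47, SE 0.29). Cdkn1a, the inhibitor p21 that Miz1 and p53 both act on, lay at 1.75 and 2.84 CPM against 0.229 and 3.37 CPM, and the groups overlapped. Without wt 1 the difference of Socs1 was -0.86, and without deltaPOZ 2 that of Cdkn1c was -5.42. No member passed over all genes with edgeR, DESeq2 called Rpl22 (adjusted p = 0.00814), and edgeR called Cdkn1c without deltaPOZ 2 (adjusted p = 0.0384).

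Rpl22l1, the paralog of Rpl22 whose mRNA Rpl22 is known to restrain, was higher with deltaPOZ while Rpl22 was lower. It lay at 8.46 and 8.80 CPM in the wt tumours, at 104.5 CPM in deltaPOZ 1 and at 22.3 CPM in deltaPOZ 2 (log2 2.88, SE 0.57, edgeR adjusted p = 0.193), and its locus (chromosome 3, 28805436 to 28807424) overlaps the predicted gene Gm33051 on the opposite strand. Without deltaPOZ 1 the difference was 1.35, so its size rested on that tumour. The wt tumours lay below all 12 ICN libraries (40.2 to 244 CPM) and deltaPOZ 1 within them. The log2 differences of the 2 genes had opposite signs in both ICN backgrounds too (Rpl22 -0.52 and -0.53, each SE 0.22, Rpl22l1 1.063 and 1.002, each SE 0.48). In the ICN p53-ko background the groups of Rpl22 overlapped, with deltaPOZ at 278 to 574 CPM and wt at 513 and 581 CPM.

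Of 17 genes of snoRNP assembly 9 did not overlap with deltaPOZ lower, beside 13.2% of all genes, and 1 higher, but Znhit3 alone had an unadjusted p under 0.05, and the median was -0.28. Nop56, a core protein of box C/D particles, lay at 529 and 339 CPM against 243 and 333 CPM (log2 -0.59, SE 0.40). Of 30 ribosome biogenesis genes 10 were lower without overlap and 0 higher (median -0.21), beside the same 13.2% and 12.8%, of which Nolc1 (322 and 217 against 114 and 160 CPM) and Noc3l (73.2 and 36.8 against 25.8 and 33.7 CPM) had an unadjusted p under 0.05, beside 2.74% of all genes. Without wt 1 the difference of Noc3l was -0.30 in place of -0.89. Both lie on chromosome 19, whose median level was lower by 0.39 with deltaPOZ (below), and its part in their difference was not tested.

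T cell receptor signalling genes and their inhibitors were more often higher than lower with deltaPOZ. Of 27 genes 10 were higher without overlap and 8 of those had an unadjusted p under 0.05, beside 12.8% and 3.84% of all genes, while 5 were lower without overlap, 2 with such a p (Vav1 and Ubash3a). Cd5, a surface inhibitor of receptor signalling, lay at 10.3 and 8.07 CPM with wt and at 29.8 and 55.4 CPM with deltaPOZ (log2 2.22, SE 0.54, edgeR adjusted p = 0.291). Nr4a1, an immediate response gene of receptor signalling, lay at 7.31 and 4.25 CPM against 44.0 and 16.5 CPM (2.39, SE 0.59), and Egr1 at 1.38 and 2.12 CPM against 10.9 and 3.21 CPM (2.00, SE 0.64). Ctla4, an inhibitory receptor, lay at 0.375 and 6.93 CPM against 252 and 16.5 CPM, so that deltaPOZ 1 set most of its difference. Cd6, the adaptor Lcp2, Egr3 and the phosphatase Dusp5 complete the 8. Without deltaPOZ 1 the differences of Nr4a1 and Egr1 were 1.499 and 0.86, those of Egr3 and Dusp5 1.24 and 0.47, and without deltaPOZ 2 that of Cd6 was 0.69. The median of the list was 0.15. No member passed over all genes with edgeR, DESeq2 called Cd5 (adjusted p = 0.00921) and Nr4a1 (adjusted p = 0.00594) among those named, and edgeR called Vav1 without deltaPOZ 2 (adjusted p = 0.0479).

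Genes of phosphoinositide 3-kinase and AKT signalling had 4 members higher and 4 lower without overlap out of 28 (median 0.08), near the 12.8% and 13.2% of all genes. With an unadjusted p under 0.05 stood Phlpp2, the kinase subunits Pik3cd (105 and 97.7 against 200.1 and 292 CPM) and Pik3cb (3.50 and 4.09 against 5.31 and 16.5 CPM), all higher, and Rheb, the activator of mTORC1, lower (86.7 and 86.5 against 58.8 and 70.2 CPM). Without deltaPOZ 2 the difference of Pik3cb was 0.50 in place of 1.52. In the Bcl2 family of 17 genes tested, 2 were higher without overlap (Bcl2l2 and Bbc3) and 4 lower (Bax, Bak1, Bid and Bad), beside the same 12.8% and 13.2%. Bcl2l2 and Bak1 had an unadjusted p under 0.05, beside 3.84% higher and 2.74% lower of all genes. Bak1, an executioner of cell death, lay at 67.3 and 78.1 CPM against 49.4 and 55.0 CPM. The 4 lower members all promote cell death, and Bbc3, which is higher (3.40 and 1.69 against 5.15 and 4.97 CPM), does so too.

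Cholesterol synthesis genes were lower in 11 of 24 without overlap and higher in 1, beside 13.2% and 12.8% of all genes, with a median of -0.50. Of the 11, Sqle, Dhcr7 and Acat2 had an unadjusted p under 0.05 as well, beside 2.74% of all genes. Sqle, which makes squalene epoxide, lay at 173 and 123 CPM with wt and at 36.8 and 113 CPM with deltaPOZ (log2 -0.98, SE 0.41, and -0.40 without deltaPOZ 1 or -1.99 without deltaPOZ 2). The summed level of the list was 2175, 1673, 980 and 1625 CPM in wt 1, wt 2, deltaPOZ 1 and deltaPOZ 2, so that deltaPOZ 2 lay near wt 2 and deltaPOZ 1 stood apart. Of 18 meiosis genes tested, 4 were higher and 2 lower without overlap, beside 12.8% and 13.2% of all genes. Of these, Hfm1 was lower and M1ap, Dmc1 and Rec8 were higher at an unadjusted p under 0.05, beside 2.74% lower and 3.84% higher of all genes. M1ap lay at 0.0751 and 0.0718 CPM against 2.11 and 2.87 CPM (log2 5.04, SE 0.73, edgeR adjusted p = 0.0598). Rec8, the meiotic cohesin subunit, lay at 0.05004, 0.0431 and 0.137 CPM in wt 1, wt 2 and deltaPOZ 1 and at 23.8 CPM in deltaPOZ 2, so 1 tumour made its difference.

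All 19 T lineage markers were detected, and their summed level was 7561, 6411, 5353 and 7692 CPM in wt 1, wt 2, deltaPOZ 1 and deltaPOZ 2, against 3466 to 5387 CPM with ICN. These markers show T lineage cells in all 4 and do not tell T-ALL, the labels' term, from thymic lymphoma. Of these markers 4 were higher with deltaPOZ without overlap and 1 lower (Themis), beside 12.8% and 13.2% of all genes, with a median of 0.01. Of the 4, Cd5, Cd6 and Cd28 each had an unadjusted p under 0.05, beside 3.84% of all genes. Without deltaPOZ 1 the difference of Cd28 was 0.66 in place of 1.70, and without deltaPOZ 2 that of Cd6 was 0.69 in place of 1.29. Genes of double-positive and recombining thymocytes summed to 14360, 10370, 5529 and 11590 CPM (2824 to 7486 with ICN). Rag1, a recombinase subunit, lay at 5815, 3838, 1751 and 5295 CPM against 8.65 to 1429 CPM with ICN, and Cd8a lay at 1209, 517, 577 and 643 CPM. Of these 18 genes 2 were higher and 2 lower without overlap, beside the same shares of all genes, and 0 had an unadjusted p under 0.05. Tumour deltaPOZ 1 had the lowest sum. The leukaemia genes Tal1 (0.0144 to 0.137 CPM), Lyl1 (0.366 to 1.05 CPM) and Lmo2 (1.03 to 2.75 CPM) lay below all ICN libraries (113 to 298, 20.5 to 58.6 and 44.2 to 186 CPM). The 20 progenitor and double-negative genes summed to 112, 508, 137 and 217 CPM (488 to 1081 with ICN).

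**Figure D3:**
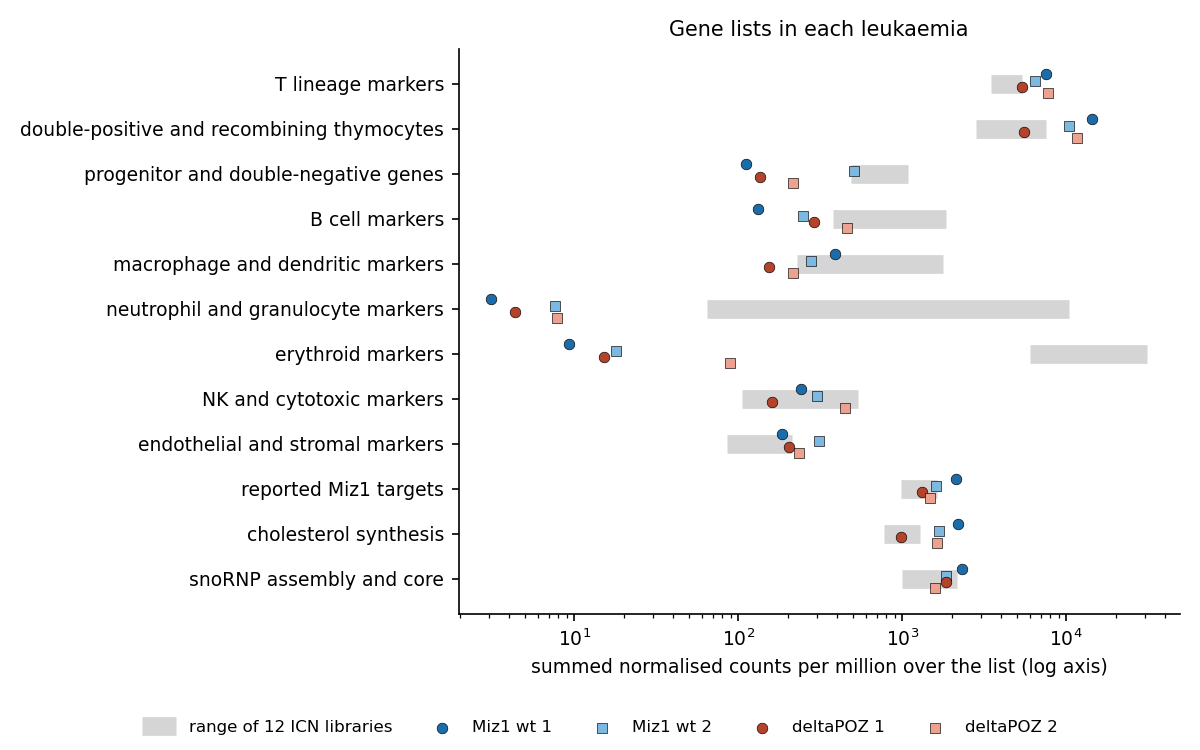
Summed CPM of 12 gene lists in each of the 4 leukaemias without ICN (points, log axis), with the range of the 12 ICN libraries in grey. Erythroid markers lay at 9.28 to 88.8 without ICN against 6009 to 31050 with ICN, double-positive genes were lowest in deltaPOZ 1, and the genotypes overlapped on most lists.

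Markers of erythroid cells and neutrophils lay below all ICN libraries, and those of other cells did not all do so. In a tumour sample fewer cells of a type cannot be told apart from less RNA per cell. The erythroid list summed to 9.28, 18.1, 15.2 and 88.8 CPM (6009 to 31050 with ICN). Beside 12.8% of all genes higher and 13.2% lower without overlap, 8 of its 19 genes were higher and 0 lower, and 5 had an unadjusted p under 0.05, namely 4 globin genes and Alas2, with deltaPOZ 2 the highest in each. Hbb-bs lay at 1.10, 1.39, 4.65 and 22.2 CPM (log2 3.42, and 1.90 without deltaPOZ 2). Neutrophil markers summed to 3.13 to 7.87 CPM (64.7 to 10360 with ICN). Macrophage and dendritic markers summed to 388, 279, 155 and 216 CPM, and 14 of 22 were lower with deltaPOZ without overlap, beside the same 13.2%, and 1 was higher. Of the 14, 2 had an unadjusted p under 0.05 (Cd68 and C1qb). Of 18 B cell markers 5 were higher and 3 lower without overlap, beside the same shares, and Cd79b, Blnk, Ighm and Fcrla had an unadjusted p under 0.05, while the defining markers Ms4a1 and Pax5 lay at 0.0144 to 0.325 CPM in all 4. Endothelial and stromal markers summed to 184, 311, 203 and 236 CPM (85.4 to 213.5 with ICN), so that wt 2 and deltaPOZ 2 lay above every ICN library. NK and cytotoxic markers (242, 302, 161 and 445.5 CPM against 105 to 539 with ICN) and thymic epithelial markers (68.7, 108, 66.4 and 148 CPM against 61.5 to 149) lay within the ICN range. Whether these other cells had a part in the gene differences above was not tested.

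The 4 tumours differed as much within a genotype as between genotypes. Distance was measured as the root mean square difference of log2 CPM over the 17470 genes. It was 1.35 between wt 1 and wt 2 and 1.39 between deltaPOZ 1 and deltaPOZ 2. Between genotypes it was 1.41 (wt 1 and deltaPOZ 1), 1.27 (wt 1 and deltaPOZ 2), 1.32 (wt 2 and deltaPOZ 1) and 1.15 (wt 2 and deltaPOZ 2). The smallest of the 6 distances thus joined a wt with a deltaPOZ tumour, and the mean was 1.37 within and 1.29 between genotypes. No test was made, since 4 tumours can be paired in 3 ways only. Both pairs lay further apart than the 6 pairs within ICN groups, which lay at 0.756 to 1.22. Genes more than 4-fold apart numbered 1705 (9.76%) in the wt pair and 1947 (11.1%) in the deltaPOZ pair, against 521 to 1490 (2.98% to 8.53%) in the ICN pairs. The biological coefficient of variation was 58.9% over these 4 libraries and 40% over the 12 with ICN.

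**Figure D4:**
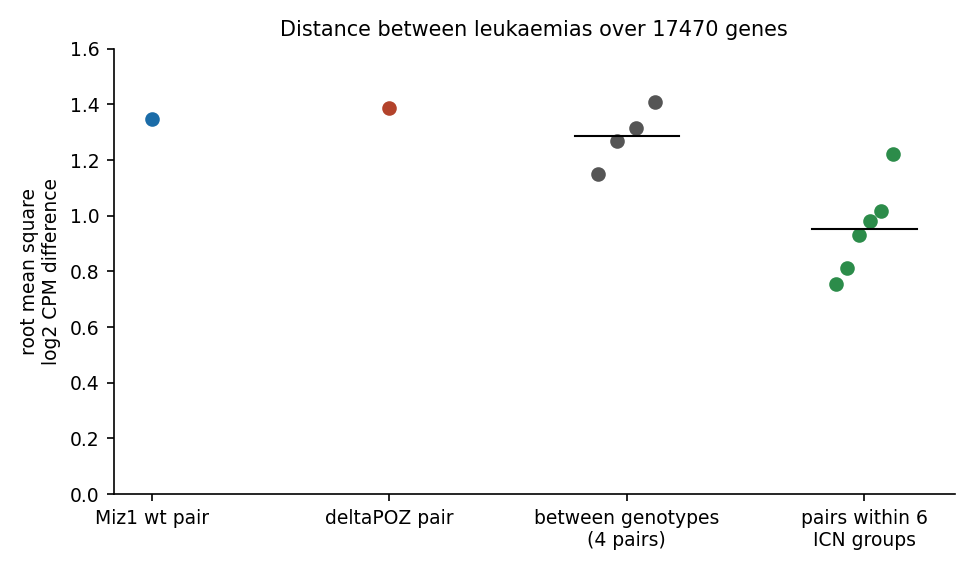
Root mean square log2 CPM difference between 2 libraries over 17470 genes, for the wt pair, the deltaPOZ pair, the 4 pairs between genotypes and the pairs within the 6 ICN groups, with 1 point per pair and a line at the mean. The distances within genotypes (1.35 and 1.39) lie among those between genotypes (1.15 to 1.41) and above those with ICN (0.756 to 1.22).

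Principal components of the 4 libraries set single tumours apart. The first held 40.0% of the variance and placed deltaPOZ 1 at 110.9, with the others at -59.4, -3.47 and -48.1 (wt 1, wt 2 and deltaPOZ 2). The second (35.7%) placed wt 1 at 90.9 and wt 2 at -71.4. The difference between genotype means held 28.0% of the variance among the 4. Any pairing of the 4 holds a share, since the 3 possible pairings divide this variance among them, and 28.0% is below an even share.

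Genes high in a single tumour were of many kinds. Tumour wt 1 had the chromatin factor gene Bahcc1 at 23.1 CPM (0.0574 to 0.99 in the other 3) and Ptprn, Ctsw, Ripk4 and Megf11, and it lacked Yap1, the Hippo pathway coactivator (0.4 CPM, 62.7 to 76.0 in the others), Mpzl2 and Lrrc9. Tumour wt 2 had the glypican Gpc3 at 24.3 CPM (0.1 to 1.13), the Notch target Heyl at 35.8 CPM (1.03 to 2.22), Cd93 at 83.9 CPM (1.28 to 5.18), Zfp827 and Pkdcc, and little Fzd10, Igf2bp3 and Adam12 (1.29 against 80.9 to 347 CPM). Tumour deltaPOZ 1 had the DNA sensor Aim2 at 56.2 CPM (0.676 to 0.775), the Notch target Hey1 at 24.8 CPM (0.187 to 1.06), Ctla4 at 252 CPM, Lpar4 and Fcgr2b, and little Kif26a, Avpr1a and Cym. Tumour deltaPOZ 2 had the integrin Itgb4 at 42.4 CPM (1.14 to 2.85), the intermediate filament Nes at 83.3 CPM (0.71 to 6.59), Nsg1, Nkx2-4 and Ccdc106, and less Zadh2, Tshz1 and Nova1. Among 10757 protein-coding genes, those more than 4-fold below the other 3 tumours numbered 236 in wt 1, 94 in wt 2, 222 in deltaPOZ 1 and 2 in deltaPOZ 2, and those more than 4-fold above numbered 21, 39, 49 and 63.

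Notch targets and known tumour genes varied from tumour to tumour. Of 23 Notch targets 2 were higher and 0 lower without overlap, beside 12.8% and 13.2% of all genes. Of the 2, Hey1 had an unadjusted p under 0.05 (without deltaPOZ 1, log2 2.35 in place of 5.97). Heyl (-3.15) and Hes1 (-1.30) had such a p in the other direction with groups that overlapped, since wt 2 was high and wt 1 was not. Hes1, a main Notch effector, lay at 11.8, 76.5, 19.5 and 16.5 CPM. Dtx1, which encodes an E3 ligase of the Notch pathway, lay at 12.01, 518, 214 and 263 CPM in wt 1, wt 2, deltaPOZ 1 and deltaPOZ 2, so wt 1, with the least Notch1, had the least of it. Il2ra, a receptor subunit of early thymocytes, lay at 0.0751, 41.4, 17.1 and 0.434 CPM. Ccnd1, a cyclin of the G1 phase, lay at 297, 39.3, 9.25 and 194 CPM, all above the ICN range of 1.31 to 5.94 CPM. Cdkn2a, which encodes p16 and p19ARF, lay at 91.8, 38.9, 93.5 and 148 CPM, without overlap but with wt 1 next to deltaPOZ 1 (log2 0.89, SE 0.62).

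T cell receptor segments differed in each tumour. Counts over the 21 Trbv segments were taken by Trbv15 in wt 1 (95.8% of 28071 counts), by Trbv13-2 (30.4%) and Trbv26 (24.8%) in wt 2 (6048 counts), by Trbv31 in deltaPOZ 1 (74.0% of 14579) and by Trbv3 (45.0%) and Trbv12-2 (29.3%) in deltaPOZ 2 (14571 counts). No leading segment recurred. Constant segments of the gamma chain summed to 0.951, 69.8, 42.3 and 28.0 CPM. These shares cover gene-level counts of annotated segments, not rearranged sequences, and segments are near-identical in part, so they are uncertain.

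Expression along chromosomes was set against the mean of the 6 ICN p53-wt libraries, as the median over genes with a mean log2 CPM of at least 3. Chromosome 15 lay at 0.85, 0.69, 0.45 and 0.83 on the log2 scale in wt 1, wt 2, deltaPOZ 1 and deltaPOZ 2, above all ICN libraries (-0.08 to 0.24). Chromosome 4 lay at 0.81, 0.34, 0.35 and 0.62 (-0.01 to 0.33 with ICN). Both were high in both genotypes. Chromosome 15 carries Myc, which lay at 159, 150, 79.6 and 151 CPM, and chromosome 4 carries Zbtb17, Rpl22, Eif2b3 and Gne, all 4 highest in wt 1, as was the chromosome. In all, 6 of 20 chromosomes (4, 5, 10, 15, 16 and 18) had all 4 tumours outside the ICN range, not always on the same side. Lying outside was common, since all 20 chromosomes had at least 1 tumour there. Single tumours lay outside on 14 (wt 1), 14 (wt 2), 13 (deltaPOZ 1) and 17 (deltaPOZ 2) chromosomes. The ICN range includes the 6 libraries that made the reference mean, which draws those libraries towards it.

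**Figure D5:**
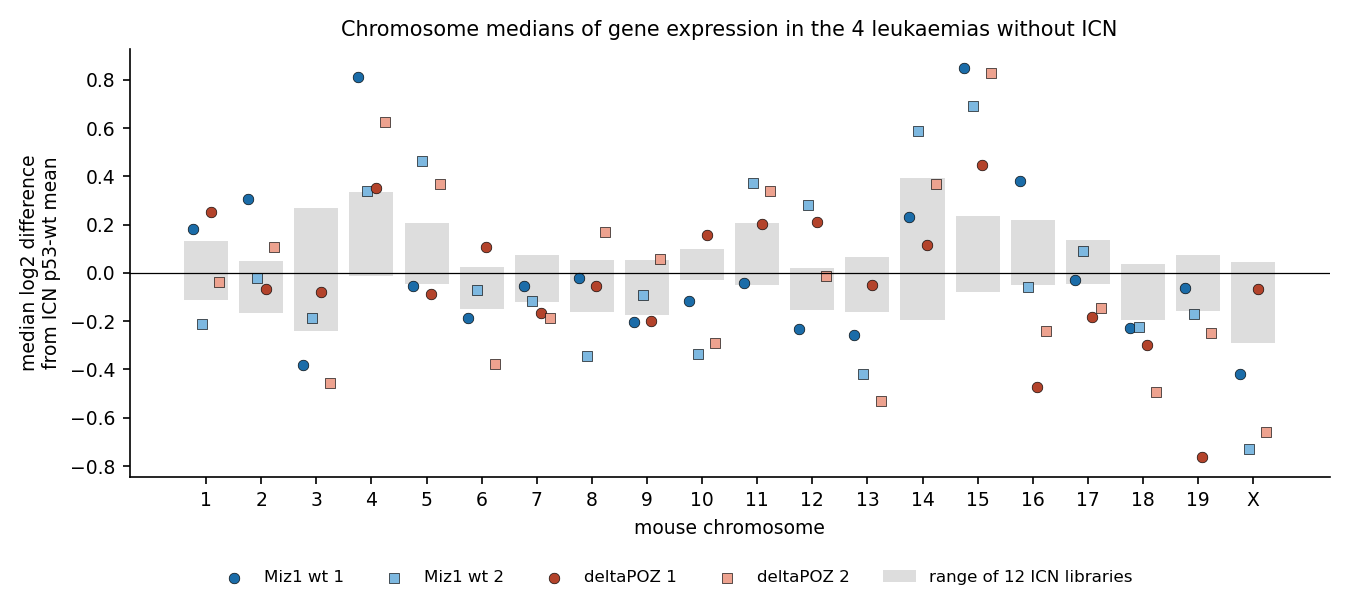
Median log2 difference from the mean of the ICN p53-wt libraries for each chromosome, with 1 point per leukaemia without ICN and the range of all 12 ICN libraries in grey. Chromosome 15 (0.45 to 0.85) and chromosome 4 (0.34 to 0.81) lay high in all 4, chromosome 16 lay lower in both deltaPOZ tumours (-0.47 and -0.24) than in both wt tumours (0.38 and -0.06), and chromosome 19 was low in deltaPOZ 1 (-0.76).

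A few chromosomes differed between the genotypes. Chromosome 16 lay at 0.38 and -0.06 in the wt tumours and at -0.47 and -0.24 in the deltaPOZ tumours, a difference of -0.52, the widest of the 20. It carries Vps26c (-0.80) and Bfar (-0.89) among the genes named as lower, and 2 of the genes with GCGATCG in their window that were lower, Ap2m1 (-0.67) and Thap7 (-0.92). Ppm1f (-0.98) lies there too. Chromosome 19 differed by -0.39, from -0.06 and -0.17 in the wt tumours to -0.76 and -0.25 in the deltaPOZ tumours. Chromosome 4, which carries Rpl22, Eif2b3 and Gne, differed by -0.09, less than those genes did (-1.18, -1.24 and -0.92). Chromosome 11, which carries Znhit3, differed by 0.10 in the other direction. Chromosome 18, which carries Tshz1 (-2.61) and Ptpn2 (-0.71), differed by -0.17, from -0.23 and -0.22 in the wt tumours to -0.30 and -0.49 in the deltaPOZ tumours. Zadh2, which like Tshz1 was lowest in deltaPOZ 2, lies there too. The part of the chromosome levels in the gene differences was not tested.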

How the data were processed

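RNA-seq libraries of 16 mice were used, 1 library per mouse, with the 4 without ICN as the libraries described. The deposited values are raw counts per gene. Per the submitters' processing notes, which give no order, the builds were mm10 and GRCm38 and the software HTSeq, TopHat2 2.0.10, DESeq and SAMtools. The sources used here name neither the strand setting nor the annotation release. Totals that name no gene entered neither library sizes nor tests, so that genes kept 26.48% to 37.34% of each of the 4 libraries' totals (alignments not unique 46.51% to 56.21%, outside genes 15.27% to 17.07%). Names and coordinates came from GENCODE M21 (40340 of 41214 identifiers matched) and promoters from RefSeq on GRCm38.p6.

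The test was edgeR 4.0.16 in R 4.3.3 (TMM, filterByExpr over 8 groups, 8 residual degrees of freedom, common dispersion 0.208). The SE is the log2 difference divided by the square root of F. Log2 CPM used a prior count of 2. DESeq2 1.42.0 and limma 3.58.1 (voom) were alternatives. Simulated counts with known changes were run through the fit. All simulated libraries shared the same spread per gene, so this run does not check the wider spread of the tumours without ICN. Members, gene lists and tests were chosen with earlier results of these data known. Named genes were protein coding with a mean log2 CPM of at least 0 and groups that did not overlap, the first 15 per direction by p, without receptor segments, predicted genes, Y-linked genes and Xist. Per tumour, the 5 genes furthest above and the 3 furthest below the nearest other tumour were named, and 5 per direction from the difference between effects. Up to 6 members a list were named at an unadjusted p under 0.05 without overlap, with defining markers. Terc, Hfm1, M1ap, the genes around the promoter strings and members that complete a small count or show the spread of a list were added after their values were seen. A few genes that these rules pick are not reported here, though counts include them.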

Additional observations from a re-analysis of the deposited data

How the results depend on the processing

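With 2 mice a group, precision is set by the spread between tumours, not by depth. Against 0 genes called, edgeR called 0 with RLE size factors and in the 4 libraries alone (448, 2.94%, at an unadjusted p under 0.05), limma voom called 0, the fit with no filter on low counts called 746 and DESeq2 228, and fits that left out 1 library called 0 (without deltaPOZ 1) to 108 (without deltaPOZ 2). The difference from the effect in ICN p53-ko Vav mice went from 0 to 613 with no filter and 74 with DESeq2, and lay at 0 to 12 when 1 library was left out (12 without wt 2, 11 without deltaPOZ 2). Genes at an unadjusted p under 0.05 without overlap went from 670 to 378 (higher) and from 479 to 67 (lower) in the 4 libraries alone. Leaving out 1 library gave 796 to 1391 (higher; 1132 without wt 2, 1391 without deltaPOZ 2) and 414 to 1492 (lower; 783 without wt 2, 1492 without deltaPOZ 2), where a group of 1 overlaps less easily and the lone tumour is assumed to vary like the other groups. The mean distance moved from 1.37 to 1.56 within and from 1.29 to 1.47 between genotypes with a prior count of 0.5, and to 0.895 and 0.829 over well-expressed protein-coding genes, larger within than between in both, as with RLE factors and without marker genes. Of 835 values of 93 named genes under alternatives, 0 reversed. These genes were chosen for groups that did not overlap in the same libraries, so their signs could hardly reverse. Leaving out 1 library moved the log2 difference of 45 of the 93 by over 1.5 times (11 without wt 1, 9 without wt 2, 20 without deltaPOZ 1, 18 without deltaPOZ 2). No paired analysis was possible because the mice carry only their own numbers, which pair no wt with a deltaPOZ mouse.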

Other observations

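The counts below stand beside 12.8% of all genes higher and 13.2% lower without overlap. Of 27 interferon response genes 1 was higher and 0 lower without overlap (median 0.12), and the list summed to 297, 530, 438 and 437 CPM in wt 1, wt 2, deltaPOZ 1 and deltaPOZ 2, below the 832 to 2039 CPM of the ICN libraries. Of 30 cell cycle genes 3 were higher and 5 lower (median -0.09), with Mcm4, a subunit of the replicative helicase, at 438 and 333 CPM with wt and 260 and 237 CPM with deltaPOZ (log2 -0.63, SE 0.22, and -0.41 without wt 1), on chromosome 16, whose median level was lower by 0.52. Of 23 glycolysis and hypoxia genes 1 was higher and 6 lower (median -0.40), with P4ha1, a collagen prolyl hydroxylase, at 101 and 194 against 50.1 and 85.4 CPM (-1.12, SE 0.43, and -0.60 without wt 2). Of 43 genes of autophagy and vesicle transport 3 were higher and 6 lower (median -0.08). Snx18, a sorting nexin, lay at 43.8 and 35.4 against 16.4 and 21.6 CPM (-1.06, SE 0.33), and Stx17, the autophagosome SNARE, went the other way at 24.3 and 13.9 against 47.7 and 25.2 CPM (0.93, SE 0.37, and 0.38 without deltaPOZ 1 or 0.57 without wt 2). No member of these lists passed over all genes with edgeR. Mitochondrially encoded genes summed to 6678, 4947, 11160 and 3743 CPM, highest in deltaPOZ 1 and lowest in deltaPOZ 2, with 0 of 8 genes tested without overlap. In the remaining lists, members higher and lower without overlap numbered 3 and 1 of 16 maturing T cell genes (S1pr1 and Cd69 higher at an unadjusted p under 0.05, at log2 0.45 and 0.25 without deltaPOZ 1), 1 and 3 of 20 progenitor and double-negative genes (Cd93 lower), 1 and 1 of 14 T-ALL oncogenes tested, 3 and 0 of 20 genes of p53-null lymphoma (Ccnd2 higher) and 3 and 3 of 17 immediate early genes. Among markers of other cells the same counts were 5 and 2 of 18 (neutrophils), 8 and 0 of 18 (endothelium and stroma), 3 and 0 of 9 (thymic epithelium, Krt18 higher), 3 and 1 of 14 (NK cells, Klrk1 higher) and 2 and 0 of 10 (megakaryocytes and mast cells).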
